A study of Mus musculus with 6 samples.

Results

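AP-1 is a family of dimeric transcription factors built from basic leucine zipper (bZIP) proteins. Jun proteins pair with Fos proteins or with Batf, and Batf, which lacks a transactivation domain, can bind DNA together with the interferon regulatory factors Irf4 or Irf8. In helper T cells this assembly is known for its place in Th17 and follicular helper differentiation and in the response to antigen receptor signals. The 8 genes described here are Batf, the Jun genes Jun and Junb, the Fos genes Fos, Fosb and Fosl2, and the IRF genes Irf4 and Irf8. They were chosen by their symbols, with their counts at 0 h and 8 h already known, among them the low counts of Batf at 8 h. Their levels in that contrast are therefore given as a description. All 8 were matched, each to 1 row of the 13177 transcript rows of the deposited table.

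The study sequenced RNA of CD4+ T cells purified from mice by magnetic beads and given synthetic miR-155 as an oligonucleotide. This microRNA rises when lymphocytes are activated. The 6 libraries form a control group at 0 h (n = 3) and a group collected 8 h after transfection (n = 3). The treatment label names the oligonucleotide for both groups, and time and exposure cannot be told apart, since no 8 h sample without it is part of the design. The sources used here do not give the mouse strain, the age, or whether replicates came from separate animals or cultures. The p-values set the group difference against the spread among these libraries. That spread may be technical, so they speak for these samples only. The descriptions of the 8 h samples say CD5+ where the source label says CD4+.

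Library totals ran from 4564010 to 13675127 counts. Of the 14 defining T cell markers all were matched, and their summed level was 3406 to 20066 CPM (counts scaled to a library of 1000000) in controls and 5820 to 12511 CPM at 8 h. Cd4 itself had 5 to 10 counts in every library. Markers of cytotoxic and natural killer cells summed to 1335 to 4855 CPM in controls and 248 to 453 CPM at 8 h. B cell and plasma cell markers summed to 89.8 to 162 CPM in controls and 62.3 to 162 CPM at 8 h, myeloid and dendritic markers to 269 to 570 CPM and 80.3 to 197 CPM, and erythroid and platelet markers to 56.7 to 214 CPM and 11.01 to 66.3 CPM. Among the markers listed at 0 in at least 1 library were Gzmk, Klrb1c, Pax5, Cr2, Jchain, Csf1r, Adgre1, Xcr1, Zbtb46, S100a8, S100a9, Alas2 and Pf4, and the housekeeping gene Ywhaz was also at 0 in a library. Of the tested markers edgeR called 0 of 10 T cell, 11 cytotoxic, 9 B cell, 10 myeloid and 6 erythroid genes, with 0, 2, 1, 1 and 1 at an unadjusted p under 0.05 (8.53% of all rows). DESeq2 called Gzma, Prf1, Klrb1c and Itgax lower and Ms4a1 higher, where it called 6.06% of rows. The cytotoxic and the myeloid sums were lower in each 8 h library than in each control, as was Batf. Abundant genes weigh most in these sums, with Gzmb at up to 4535 CPM and Cst3 at up to 478 CPM. Of the tested genes, Cd8a, Cd8b1, Klrk1, Ncr1 and Eomes, and the myeloid Fcgr3, Tyrobp, Flt3 and Mpo, had log2 fold changes above 0. The rest of these lists lay below 0, with medians of -1.84 and -0.40. The part of other cells in the values below was not tested. In bulk RNA, fewer cells of a type and less RNA per cell cannot be told apart.

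The oligonucleotide has a natural counterpart in the mature strand miR-155-5p (RefSeq, GRCm38.p6, chr16:84714143-84714165, plus strand), printed here because its seed, bases 2 to 8 in capitals, decides which 3' UTRs hold a match. The only match to the 7 bases AGCATTA in the longest GENCODE M21 3' UTR of any of the 8 genes lay in Fosl2 (GRCm38, chr5:32156940-32156946, plus strand). It begins at base 3751 of 4653 in that UTR, and it is followed by A, the base opposite position 1. Capitals mark the match in the second line.
miR-155-5p: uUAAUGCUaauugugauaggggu
Fosl2 site: tgaatagaaacagatAGCATTAa
Of 12579 genes in the table with an annotated 3' UTR, 8.25% held such a match. The 3' UTRs of the other members measured 335 bases for Batf, 485 for Junb, 815 for Fos, 1233 for Jun, 1519 for Irf8, 2302 for Fosb and 3309 for Irf4, against a median of 983 bases over these genes. A match of letters is a description and no evidence that the site is used.

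Batf and Junb were the most abundant members per transcript length in 5 of the 6 libraries, 8 h replicate 1 being the exception, and their promoter windows, 250 bases before to 50 after the annotated start (RefSeq, GRCm38.p6), are printed for that reason. Batf is shown from chr12:85686470-85686769 on the plus strand and Junb from chr8:84978699-84978998 on the minus strand. Neither holds a match, so no base is in capitals.
Batf promoter: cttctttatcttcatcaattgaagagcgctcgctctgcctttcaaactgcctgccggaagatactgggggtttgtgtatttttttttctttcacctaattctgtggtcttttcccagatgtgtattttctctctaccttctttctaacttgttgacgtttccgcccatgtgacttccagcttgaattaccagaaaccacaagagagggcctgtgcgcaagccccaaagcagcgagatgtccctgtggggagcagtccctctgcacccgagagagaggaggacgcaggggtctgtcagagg
Junb promoter: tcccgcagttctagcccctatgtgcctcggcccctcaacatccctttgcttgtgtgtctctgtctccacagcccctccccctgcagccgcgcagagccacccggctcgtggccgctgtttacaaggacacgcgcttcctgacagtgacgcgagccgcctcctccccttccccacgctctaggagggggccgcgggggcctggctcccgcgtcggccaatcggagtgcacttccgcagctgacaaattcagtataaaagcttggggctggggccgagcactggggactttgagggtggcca
The windows of all 8 genes were searched on both strands for 6 motifs. The AP-1 site TGANTCA occurs in 7.81% of the 32851 windows in the reference, and the cyclic AMP response element TGACGTCA in 1.79%. The AP-1 and IRF composite made of TTTC, a gap of 4 bases and the AP-1 site occurs in 0.119% of windows, and the form with GAAA directly before the AP-1 site in 0.125%. The Ets and IRF composite (GGAA and GAAA with a pair of bases between) occurs in 2.72%, and the interferon response element (GAAA and GAAA with a pair of bases between) in 3.44%. The AP-1 and IRF composites include the AP-1 site, so those matches overlap. The single match among the members was an interferon response element in Fosl2, on the minus strand (chr5:32136251-32136260), where capitals mark it.
Fosl2 element: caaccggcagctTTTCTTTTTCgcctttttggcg
That the other windows lack these letters says nothing about factors that bind elsewhere.

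Batf, the partner that links Jun proteins to Irf4, lies on chromosome 12 (85686720 to 85709087, GRCm38.p6, plus strand) and its row stands for a transcript of 955 bases in 3 exons. It had 0 h counts of 1752, 7423 and 19326 and 8 h counts of 104, 203 and 512. On the CPM scale, with TMM-scaled library sizes, the controls stood at 313, 1476 and 1763 and the 8 h libraries at 12.2, 15.3 and 74.2. All 8 h libraries lay below all controls, and the lowest control exceeded the highest 8 h library 4.22-fold. The group means were 1184 ± 768 CPM at 0 h against 33.9 ± 34.9 CPM at 8 h (SD, n = 3 each). Batf ranked 353, 103 and 85 by count among the 13177 rows in the controls and 3246, 2924 and 1135 at 8 h.

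The fitted log2 fold change of Batf was -5.13 ± 2.50 (SE), and it did not pass edgeR's quasi-likelihood test over the whole table (adjusted p = 0.553, unadjusted p = 0.0402). Over the alternative analyses it ranged from -6.40 to -4.70 and the adjusted p from 0.00736 to 0.998. DESeq2, an alternative, called Batf (adjusted p = 0.00736) with the same log2 fold change of -5.13. By edgeR 0 of the 4 tested members were called, where 0% of all 8308 tested rows were called, with 709 rows at an unadjusted p under 0.05. By DESeq2 1 of these 4 was called, where 6.06% of the 6588 rows given an adjusted p were. Because Batf was chosen with this contrast known, nothing is read from these counts. Its log2 fold change was the 98th lowest of the 8308 rows. Eef1a1, a translation elongation factor in a list of 12 housekeeping genes, had 0 h counts of 37566, 62414 and 131367 and 8 h counts of 6221, 796 and 577. Its log2 fold change of -5.15 ± 2.83 (SE; edgeR adjusted p = 0.618) was close in size to that of Batf.

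**Figure D1:**
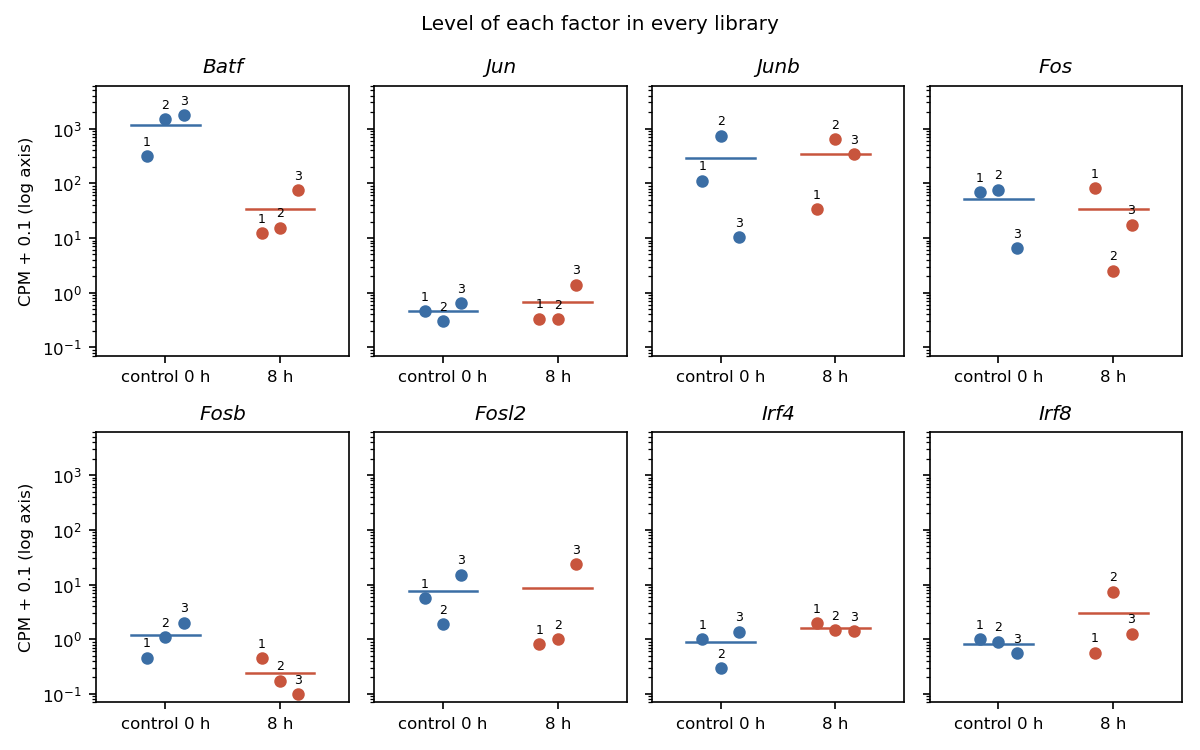
Level of the 8 factors in each library as CPM + 0.1 on a log axis, with controls at 0 h in blue and 8 h libraries in red, digits for the replicate and a bar at the group mean. Batf stands between 313 and 1763 CPM in the controls and between 12.2 and 74.2 CPM at 8 h, while the groups of Junb, Fos, Fosl2, Jun and Irf8 overlap.

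Taking all 8 members, 2 had every 8 h library below every control, Batf and Fosb, where 4.97% of all 13177 rows did. In the other direction 1 did, Irf4, where 5.78% of all rows did. The remaining 5 overlapped. For Fosb and Irf4 the margins between the groups were small and rest on few counts, as their values show.

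Junb, the Jun protein that Batf commonly pairs with in T cells, comes from a gene with a single exon on chromosome 8 (84976909 to 84978748, minus strand). Its counts were 622, 3741 and 111 in the controls and 282, 8513 and 2332 at 8 h, which is 111, 744 and 10.1 CPM against 33.1, 641 and 338 CPM. The groups overlapped over nearly their whole range, and the highest control exceeded the lowest 73.5-fold. Its log2 fold change was 0.23 ± 1.998 (SE; edgeR adjusted p = 0.985). Leaving out control replicate 2 gave 2.52 and leaving out 8 h replicate 2 gave -0.61, and it was also below 0 without control replicate 1 (-0.12) or control replicate 3 (-0.30).

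Jun, the founding member of the family and an intronless gene on chromosome 4 (95049036 to 95052222, minus strand), was near the limit of detection. It had 0 h counts of 2, 1 and 6 and 8 h counts of 2, 3 and 9 and did not pass the filter for testing. Its highest value was 1.30 CPM in 8 h replicate 3, with an exact 95% Poisson interval of 0.596 to 2.48 CPM that covers counting error only. That value lay above the upper bound of the interval in each other library, by the least margin over control 1 (0.358 CPM, upper bound 1.29 CPM). The intervals themselves overlapped, with control 3 at 0.547 CPM and an interval of 0.201 to 1.19 CPM. Actb, a housekeeping gene, had 1 to 5 counts in the same libraries.

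Fos, the immediate early partner of Jun proteins, lies on chromosome 12 (85473890 to 85477274, plus strand). Its 0 h counts were 385, 385 and 70 and 8 h counts of 689, 32 and 121. In CPM the controls stood at 68.8, 76.5 and 6.38 and the 8 h libraries at 80.9, 2.41 and 17.5. Both the highest and the lowest library belonged to the 8 h group. The log2 fold change was -0.59 ± 1.73 (SE; edgeR adjusted p = 0.949), and it was -2.32 without 8 h replicate 1 and -0.02 without 8 h replicate 2.

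Fosb, a Fos protein of the same early response (chromosome 7, 19302696 to 19310118, minus strand), had 0 h counts of 2, 5 and 21 and 8 h counts of 3, 1 and 0. It stood at 0.358, 0.994 and 1.92 CPM in controls and at 0.352 and 0.0753 CPM in 8 h replicates 1 and 2. In 8 h replicate 3, a count of 0 allows up to 3 counts, which is 0.435 CPM on the same scale and covers counting error only. The highest 8 h value and the lowest control were 1.02-fold apart, and without TMM scaling the groups overlapped (0.310 CPM in control 1 and 0.351 CPM in 8 h replicate 1). Fosb did not pass the filter for testing.

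Fosl2, also known as Fra-2, is a Fos family protein without the strong transactivation domain of Fos (chromosome 5, 32136472 to 32157840, plus strand), and it alone held the miR-155-5p match printed above. Counts at 0 h were 31, 9 and 164, and those at 8 h were 6, 12 and 162. In CPM these were 5.54, 1.79 and 14.96 against 0.704, 0.904 and 23.5. At 8 h replicates 1 and 2 lay below every control and replicate 3 above every control. The log2 fold change was 0.16 ± 1.62 (SE; edgeR adjusted p = 0.988). Without 8 h replicate 3 it was -3.18 (edgeR adjusted p = 0.667), and without control replicate 3 it was 1.19. It was also below 0 without control replicate 1 (-0.04) or 2 (-0.32) and with limma-voom (-1.27).

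**Figure D2:**
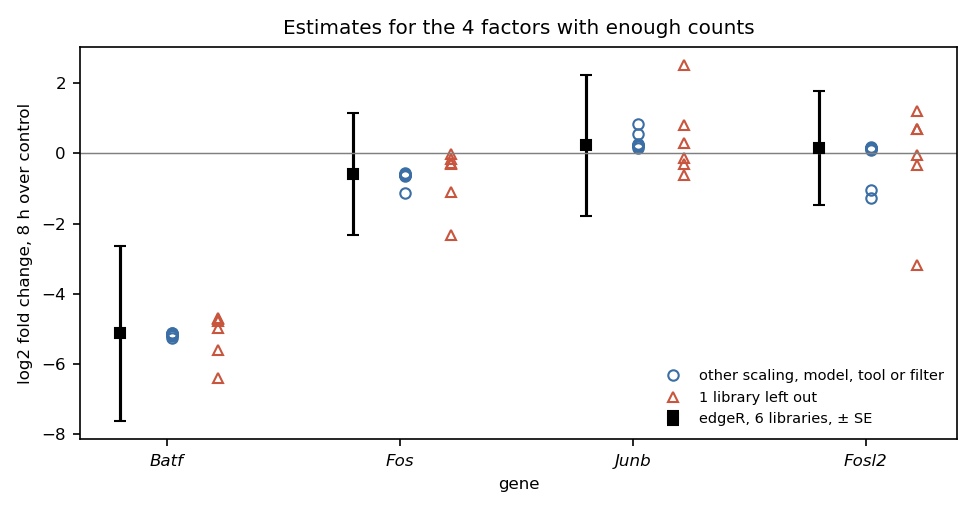
Log2 fold change of 8 h over control for Batf, Fos, Junb and Fosl2. Squares show edgeR's estimate from all 6 libraries with its SE, circles other scalings, models, tools or filters, and triangles the estimate with 1 library left out. Batf, chosen with its low 8 h counts known, runs from -6.40 to -4.70. Junb and Fosl2 have estimates on both sides of 0.

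Irf4, the IRF that antigen receptor signals induce in T cells, lies on chromosome 13 (30749233 to 30766981, plus strand). Its row held 0 h counts of 5, 1 and 14 and 8 h counts of 16, 18 and 9. Its levels were 0.894, 0.199 and 1.28 CPM in the controls and 1.88, 1.36 and 1.30 CPM at 8 h, with means of 0.790 ± 0.547 and 1.51 ± 0.318 CPM (SD, n = 3 each). The groups did not overlap. By exact 95% Poisson intervals, which cover counting error only, control 3 (0.698 to 2.14 CPM) and control 1 (0.290 to 2.09 CPM) took in every 8 h value, while control 2 (0.00503 to 1.11 CPM) took in none. Irf4 did not pass the filter for testing.

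Irf8, an IRF best known from B cells and myeloid cells and able to take the place of Irf4 beside Batf, lies on chromosome 8 (120736358 to 120756694, plus strand). Its row held 0 h counts of 5, 4 and 5 and 8 h counts of 4, 97 and 8. In CPM it stood at 0.894, 0.795 and 0.456 against 0.470, 7.30 and 1.16, so a single 8 h library lay apart from the other 5 libraries. In that library, 8 h replicate 2, the exact 95% Poisson interval was 5.92 to 8.91 CPM. Pax5, a B cell transcription factor named, like the other B cell genes here, after its values were seen, had 0 h counts of 0, 2 and 5 and 8 h counts of 1, 108 and 1, highest in the same library. The receptor gene Fcer2a, with 0 h counts of 27, 36 and 57 and 8 h counts of 23, 610 and 87, and Ms4a1, which encodes CD20, with 21, 15 and 30 against 324, 574 and 207, also had their highest counts there. By contrast Cd79a, a part of the B cell receptor, had 10, 60 and 86 against 63, 38 and 8. These are 4 of the 13 markers in that list. The part of B cell RNA in the Irf8 value was not tested.

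Levels of different genes were compared as CPM per kilobase of transcript. In every control Batf led the 6 bZIP members, with 328, 1545 and 1846 CPM per kilobase in controls 1 to 3, followed by Junb with 61.5, 411 and 5.60 and Fos with 32.6, 36.3 and 3.03. The Batf and Junb levels overlapped between libraries, as Junb in control 2 exceeded Batf in control 1. At 8 h Fos led these 6 in replicate 1 with 38.4 CPM per kilobase, ahead of Junb with 18.3 and Batf with 12.8. The relatives Jund and Batf3, described below and not among the 6, stood higher there, at 206 and 76.5 CPM per kilobase. Junb led in replicates 2 and 3 with 354 and 187 CPM per kilobase, where Batf had 16.0 and 77.7. Fosl2 stayed between 0.108 and 3.59, Jun at or below 0.409 and Fosb at or below 0.506 CPM per kilobase in all libraries. Irf4 reached at most 0.394 and Irf8 at most 2.57 CPM per kilobase.

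As a share of the summed level of these 6 transcripts, Batf took 77.5%, 77.5% and 99.4% in the controls and 18.3%, 4.31% and 28.1% at 8 h. The mean shares were 84.8 ± 12.6% and 16.9 ± 11.9% (SD, n = 3 each). Junb took 14.5%, 20.6% and 0.301% in the controls and 26.2%, 95.3% and 67.5% at 8 h, higher in every 8 h library although its own CPM overlapped between groups. A share is relative, so the higher share of Junb moves with the lower level of Batf. Fos took 7.72%, 1.82% and 0.163% against 55.0%, 0.307% and 3.00%, and these ranges overlapped. The summed level was 423, 1993 and 1857 CPM per kilobase in the controls and 69.7, 372 and 277 at 8 h.

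**Figure D3:**
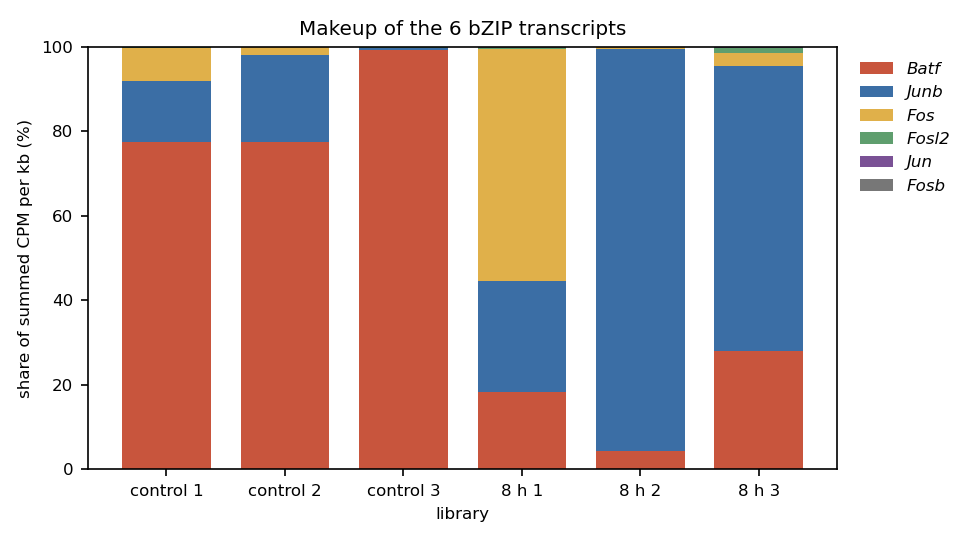
Share of each of the 6 bZIP transcripts in their summed CPM per kilobase, in percent, with a stacked bar for each library. Batf fills 77.5% to 99.4% of the control bars and 4.31% to 28.1% of the 8 h bars, where Fos (replicate 1) or Junb (replicates 2 and 3) is the largest part. Relatives outside the 6, such as Jund and Batf3, are not in the bars.

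Fos and Batf lie on the same strand of chromosome 12 with 209446 bases between them, and of the 4 annotated genes in this interval Jdp2 is the only protein-coding gene and the only gene matched in the table. Jdp2 encodes a bZIP repressor that pairs with Jun proteins. It had 0 h counts of 39, 131 and 1463 and 8 h counts of 6, 151 and 17, with 55.5 ± 68.2 CPM at 0 h against 4.85 ± 5.72 CPM at 8 h (SD, n = 3 each). The groups overlapped through 8 h replicate 2, and the log2 fold change was -3.51 ± 1.88 (SE; edgeR adjusted p = 0.611). Without 8 h replicate 2 the Jdp2 estimate was -5.14, and without control replicate 3 it was -1.72.

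Other AP-1 and BATF relatives were read from a list of 22 genes, of which 21 were matched and 16 tested. edgeR called 0 of them and DESeq2 called 0, and 0 had an unadjusted edgeR p under 0.05. Their median log2 fold change was -0.73, beside 0.06 over all 8308 tested rows. Of the 16 tested, 1 had every 8 h library below every control, where 5.08% of all tested rows did. Jund, the most constant Jun gene in many cell types, was that gene and the only listed relative whose groups did not overlap. It had 0 h counts of 2484, 3969 and 4920 and 8 h counts of 2931, 4129 and 295, or 561 ± 198 against 233 ± 165 CPM (SD, n = 3 each; log2 fold change -1.27 ± 2.07 (SE), edgeR adjusted p = 0.893). Per kilobase, Jund stood at 266, 473 and 269 CPM in the controls and 206, 186 and 25.6 CPM at 8 h, above Jun in every library. It also stood above Junb in every control and in 8 h replicate 1, and below Junb in 8 h replicates 2 and 3. Batf3, which can replace Batf in T cells, had 0 h counts of 68, 488 and 238 and 8 h counts of 522, 460 and 30. It showed no separation of the groups (log2 fold change -0.38 ± 1.72 (SE), edgeR adjusted p = 0.969), and its estimate was 0.97 without control replicate 2. Its level per kilobase exceeded that of Batf in 8 h replicates 1 and 2, at 76.5 and 43.2 CPM, and lay below it in the other 4 libraries.

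**Figure D4:**
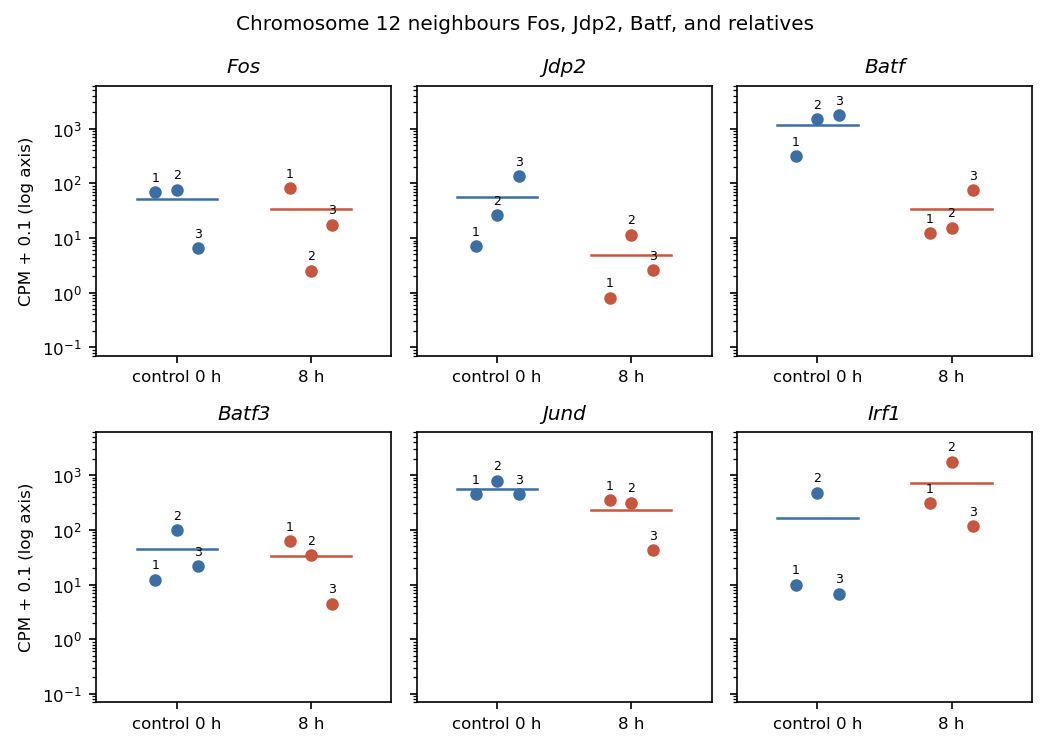
CPM + 0.1 on a log axis for the chromosome 12 neighbours Fos, Jdp2 and Batf and for Batf3, Jund and Irf1, by library, with controls in blue, 8 h libraries in red, digits for the replicate and bars for group means. Jund stays between 42.8 and 789 CPM, and Irf1 ranges from 6.75 to 1750 CPM with overlapping groups.

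In the list of 7 other IRF genes all were matched, 5 were tested and 0 were called by edgeR or DESeq2, with 0 at an unadjusted edgeR p under 0.05 and a median log2 fold change of -0.10. Irf1, an interferon-induced activator, had 0 h counts of 55, 2391 and 74 and 8 h counts of 2634, 23233 and 798 (log2 fold change 2.14 ± 2.14 (SE), edgeR adjusted p = 0.801), with 0.40 without 8 h replicate 2 and 6.48 without control replicate 2. Irf2, which binds the same element as Irf1, had 13, 268 and 75 against 985, 5701 and 54 counts (log2 fold change 3.15 ± 1.97 (SE), edgeR adjusted p = 0.653), with 1.59 and 5.33 without the same libraries. Both were highest in 8 h replicate 2, the library with the high Irf8 count. Irf9, the DNA-binding part of the type I interferon complex, had 0 h counts of 158, 391 and 322 and 8 h counts of 153, 89 and 71, and its groups did not overlap (log2 fold change -1.95 ± 1.76 (SE), edgeR adjusted p = 0.776). It was 1 of the 5 tested, where 5.08% of all tested rows were likewise lower throughout. Of 7 Ets and zinc finger partners of Irf4 and Irf8, 6 were matched and 4 tested, with 0 called by either tool, 0 at an unadjusted edgeR p under 0.05 and a median of 0.68. Spi1, which encodes PU.1, had at most 46 counts in any library.

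Upstream of AP-1, 12 of 28 kinases and phosphatases of the MAP kinase and protein kinase C pathways were tested, with a median log2 fold change of -0.36. edgeR called 0 of them, 1 had an unadjusted p under 0.05 (8.53% of all rows), and DESeq2 called 1 lower (6.06% of rows given an adjusted p). A count of 1 in 12 is near both shares. In 1 of the 12 every 8 h library lay below every control, where 5.08% of all tested rows did. That gene was Mapk3, the kinase ERK1, with 0 h counts of 85, 465 and 3369, 8 h counts of 98, 132 and 19, and groups that did not overlap (log2 fold change -4.10 ± 2.005 (SE), edgeR adjusted p = 0.555). Its log2 fold change was -2.70 without control replicate 3. Mapk8, Mapk9 and Mapk14 had too few counts for a test. Of 10 calcineurin and NFAT genes only 2 were tested, with 0 called by either tool, 0 at an unadjusted edgeR p under 0.05 and a median of 0.62.

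Among 29 genes reported to depend on Batf or Irf4 in T cells, 26 were matched and 22 tested, with a median log2 fold change of 0.17. edgeR called 0 and gave 3 an unadjusted p under 0.05, where 8.53% of all 8308 rows had one, and DESeq2 called 2 higher and 1 lower, where it called 6.06% of rows given an adjusted p. Groups lay apart for 5 of the 22 tested genes, 3 of them higher at 8 h and 2 lower. Over all tested rows 5.72% were higher and 5.08% lower in this way. Il1rl1, which encodes the interleukin 33 receptor, had 0 h counts of 5, 7 and 14 and 8 h counts of 38, 339 and 177 (log2 fold change 3.95 ± 1.87 (SE), edgeR adjusted p = 0.544, DESeq2 adjusted p = 0.0172). Ifng and Il2, cytokine genes, also had higher values in each 8 h library. Their log2 fold changes were 4.41 ± 1.95 and 2.22 ± 1.79 (SE; edgeR adjusted p = 0.538 and 0.745). DESeq2 called Ifng (adjusted p = 0.00437) but not Il2 (adjusted p = 0.246). Prdm1, which encodes the repressor Blimp-1, had 0 h counts of 321, 106 and 311 and 8 h counts of 89, 21 and 30 (log2 fold change -2.70 ± 1.80 (SE), edgeR adjusted p = 0.677), and Tbx21 was the other gene with lower values throughout. Il21, the cytokine of follicular helper cells, had 30, 1230 and 300 counts against 11, 17 and 70 and was called lower by DESeq2 (adjusted p = 0.0383, against 0.538 by edgeR), while its groups overlapped. The edgeR estimate for Il21, -4.45 ± 1.99 (SE), was -1.98 without control replicate 2. Members of this list lay on both sides of 0, and a relation to the Batf level was not tested.

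Of 23 immediate early genes, which share with Fos and Fosb a rapid induction after stimulation, 17 were tested. edgeR and DESeq2 each called 0, 0 had an unadjusted edgeR p under 0.05, and the median log2 fold change was -0.44. Egr1, a zinc finger factor, had 0 h counts of 24032, 9793 and 27989 and 8 h counts of 244, 17162 and 134 (log2 fold change -2.71 ± 2.38 (SE), edgeR adjusted p = 0.769), and it was -6.93 without 8 h replicate 2. Nr4a1, a nuclear receptor, had 89, 282 and 71 counts against 510, 5343 and 1331, with groups apart on the TMM scale and overlapping without scaling. Fos did not share the order of either gene across libraries, since its highest value was in 8 h replicate 1. In the housekeeping list 8 of 12 genes were tested, with a median log2 fold change of -0.94, beside 0.06 over all 8308 tested rows. edgeR called 0 of them, and 1 had an unadjusted edgeR p under 0.05 (8.53% of all rows). DESeq2 called 2 lower, Eef1a1 and B2m, where it called 6.06% of rows given an adjusted p. B2m had 0 h counts of 148, 42 and 123 and 8 h counts of 10, 14 and 7, and Tbp 29, 53 and 222 against 40, 60 and 15, overlapping without TMM scaling.

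The genes most like each tested member were found by the root mean square difference of centred log2 CPM over the 6 libraries, among 3244 named rows with a mean of at least 20 CPM. For Batf these were Mpnd, at a difference of 0.69, and Usp8, a deubiquitinase, at 0.71, where the median over these rows was 3.54. Mpnd had 0 h counts of 297, 3777 and 3748 and 8 h counts of 28, 58 and 330. For Junb the closest were Mrps26, a mitochondrial ribosomal protein, at 0.36 and Tfam, the mitochondrial transcription factor, at 0.57 (median 3.06). For Fos they were Pelo at 0.57 and Edem3 at 0.61 (median 2.84), and for Fosl2 Ptpra at 0.39 and Tbc1d10a at 0.50 (median 2.73). No gene appeared for more than 1 member, and no member was nearest to another. With 6 libraries and 3244 rows, close profiles arise readily, and these names are a description.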

How the data were processed

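The values are read counts per RefSeq transcript, whole numbers in 1 table that the authors deposited for 6 libraries. Per the labels' protocols, TruSeq libraries were sequenced from 1 end over 50 bases. The submitters' processing notes name Bowtie, R 3.4.2 and GRCm38 without saying what each did. How reads were counted, including those with several matches, strand and row filters, is not given in the sources used here, so counts of overlapping genes or close paralogs are uncertain. Columns were matched to samples by title, and 0 columns lay outside the series. Symbols came from a RefSeq table of GRCm38.p6 (12827 accessions) or GENCODE M21 (47), and 303 stayed unnamed. Transcript lengths and 3' UTRs came from GENCODE M21.

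Groups were compared over the whole table with edgeR 4.0.16 in R 4.3.3 (TMM scaling, filterByExpr by group, robust quasi-likelihood F test, group as the only term, two-sided, Benjamini-Hochberg threshold 0.05), which tested 8308 rows. SE was obtained by dividing the size of the log2 fold change by the root of F. CPM use TMM-scaled library sizes unless stated. The 14 alternatives included DESeq2 1.42.0 and limma-voom (limma 3.58.1). DESeq2 gave no adjusted p for 1720 rows. Protein sequences were not used here. Lists, members and alternatives were chosen with earlier results of these data known. Genes named from the lists, other than those of cell type markers, were those with a mean of at least 5 CPM in either group and groups that did not overlap, up to 4 per list by size of change, plus the 2 nearest profiles of each tested member (prior count 2). Jdp2, Batf3, Irf1, Irf2, Il21, Tbx21, Spi1, Actb, the single cell type markers and the MAP kinases listed as too low were named after their values were seen.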

Additional observations from a re-analysis of the deposited data

How the results depend on the processing

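No gene was called under the replicate block (0 genes, with 267 at an unadjusted p under 0.05), RLE or upper-quartile scaling, the newer quasi-likelihood form, limma-voom, either filter, or without each library (0 to 0), whereas DESeq2 called 399 genes, among them Batf (-5.13). Counts of 0 at so wide a spread between libraries say nothing about stability. Deviations of same-numbered libraries correlated at -0.0107, 0.0151 and -0.0039, so the numbers were not taken to pair the samples, and not every library correlated best with its own number. Batf kept its sign in 14 of 14 alternatives, with -5.26 under the replicate block and -6.40 to -4.70 without each library. Batf was chosen with its low 8 h counts known, and its groups lay apart. Leaving out a library could therefore not turn its sign, and nothing is read from this count. Fos also kept its sign in 14, but ranged from -2.32 to -0.02. Junb turned in 3, at -0.61 without 8 h replicate 2, -0.12 without control replicate 1 and -0.30 without control replicate 3, and it ranged up to 2.52 without each library. Fosl2 turned in 5, at -1.05 under the replicate block, -1.27 with limma-voom, -3.18 without 8 h replicate 3, -0.04 without control replicate 1 and -0.32 without control replicate 2, with 1.19 as its highest value without 1 library, and the cause was not tested. Without division by length the mean share of Batf in the bZIP transcripts was 75.0% in controls and 9.41% at 8 h. Jun, Fosb, Irf4 and Irf8 had too few counts for the filter in the main analysis, which limits what can be said of them.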
